A study of Mus musculus with 8 samples.

Results

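Serpins are a large family of protease inhibitors, and the series measured them in 2 tissues in which they do different work. All genes whose symbol was Serpin followed by a clade letter from a to i and a number were taken as members, which gave 54 of the 19348 genes in the count table. Clade A held 24 of them, clade B 19, clade C 1, clade D 1, clade E 3, clade F 2, clade G 1, clade H 1 and clade I 2. RNA was sequenced from liver and from epididymal white adipose tissue (eWAT) of male C57BL/6 mice aged 12 weeks after a 16 h fast. The 4 groups were eWAT Crtc1+/+, eWAT Crtc1-/-, liver Crtc1+/+ and liver Crtc1-/-, with 2 libraries in each and no other treatment. The Crtc1-/- line was made with CRISPR/Cas9 and 2 guides and was meant to lack the gene in the whole body, and the Crtc1+/+ mice were littermates. Crtc1 encodes a coactivator of the transcription factor CREB, and the comparison asks what its loss does to gene expression in each tissue. Libraries are named below by tissue, labelled genotype and replicate number.

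A serpin exposes a loop, the reactive centre loop, as bait. When a protease cuts the loop, the serpin snaps into a new fold and traps the enzyme, so that each inhibitor molecule is spent on a single protease molecule. Hepatocytes secrete many clade A, C, D, F and G serpins into plasma, where they restrain neutrophil elastase, thrombin, plasmin and the complement proteases. Clade B serpins act inside cells, Serpinh1 is a collagen chaperone that inhibits nothing, Serpina6 and Serpina7 carry steroid and thyroid hormones, and a few clade A serpins are made by the epididymis. Mice carry several copies of Serpina1, which encodes alpha-1-antitrypsin, and of Serpina3, which encodes alpha-1-antichymotrypsin, where people carry 1 gene of each.

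All 54 genes were matched by gene identifier to RefSeq on GRCm38.p6. Of the clade A genes, 23 lay side by side on chromosome 12, between 103616675 and 104414334, and Serpina7 lay on chromosome X. Clade B was split between chromosome 1 (7 genes) and chromosome 13 (12 genes). The copies of Serpina1 are so alike that reads cannot always be assigned to 1 of them. The coding sequences of Serpina1a, Serpina1b, Serpina1c, Serpina1d and Serpina1e were identical at 96.3% to 98.5% of positions in pairwise alignments, while Serpina1f shared 60.2% to 61.9% with each of the others. Of all stretches of 100 nt in the transcript with the longest coding sequence, 69.3% in Serpina1c, 49.9% in Serpina1a, 29.3% in Serpina1d, 20.6% in Serpina1b and 14.8% in Serpina1e were found unchanged in another gene, and none in Serpina1f. Counts that are not whole numbers showed the same sharing: they stood in all 8 libraries for Serpina1a to Serpina1e, in 5 libraries for Serpina3k and Serpina3m (6.09% of the stretches of Serpina3m were shared, mostly with Serpina3k), and in no other serpin. The levels of Serpina1a to Serpina1e are therefore given 1 by 1 as uncertain, and also as a sum. Serpinc1 shared 58.4% of its stretches with the overlapping gene Zbtb37, and Serpina11 shared 42.4% with Gm28577.

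The differences between the 5 copies were not spread evenly. Of the 86 positions at which they differed, among 1239 coding nucleotides, 18 fell in the 60 nt from position 1101 to 1160, counted from the start codon. That window made up 4.84% of the coding sequence and held 20.9% of the differences, against a median of 4 differing positions per window of that length. It covers part of the reactive centre loop, the bait that sets which protease is caught. The 5 sequences are shown because a read over this window can be assigned to its copy, and because Serpina1e, the copy on which the liver result below turns, was set apart there. Capitals mark the positions at which at least 1 copy differs, read 5' to 3' along the transcript:
Serpina1a: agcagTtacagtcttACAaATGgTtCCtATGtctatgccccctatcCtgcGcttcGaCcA
Serpina1b: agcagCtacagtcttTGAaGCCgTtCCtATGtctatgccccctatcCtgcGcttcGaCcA
Serpina1c: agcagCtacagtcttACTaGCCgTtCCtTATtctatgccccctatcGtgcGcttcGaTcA
Serpina1d: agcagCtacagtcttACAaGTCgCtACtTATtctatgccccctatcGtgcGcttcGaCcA
Serpina1e: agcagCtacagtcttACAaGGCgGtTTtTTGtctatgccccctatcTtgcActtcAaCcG
Within the window Serpina1e differed from the other copies at 10 to 12 positions, whereas the other 4 differed from each other at 5 to 10. The sequences were read from the GENCODE transcripts of the same genome build.

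The depth was even, from 16560087 to 19721478 counts per library, so 3 counts, the number that a count of 0 still allows, corresponded to 0.152 to 0.181 CPM, the unit in which counts are scaled to a common library total. Intervals and floors given here cover counting error only. No library pair held identical values. Crtc1 itself stood at 32.5 and 33.7 CPM in the eWAT Crtc1+/+ libraries and at 58.5 and 33.6 CPM in the eWAT Crtc1-/- libraries, and at 11.7 and 9.86 CPM against 22.1 and 18.0 CPM in liver (edgeR adjusted p = 0.396 and 0.184). The gene was not lower in the libraries labelled Crtc1-/-, and since counts cover the whole gene, with exons outside the edited part, this check says nothing for or against the labels. Marker genes of other cells differed between libraries. The 30 epididymis markers took 10.1% to 11.5% of all counts in the eWAT Crtc1+/+ libraries and 0.00165% to 0.00411% in the eWAT Crtc1-/- libraries, where 7 of them were at 0. The 15 hepatocyte markers, none of them at 0 in any group, took 17.7% to 21.3% of counts in liver, 9.36% in eWAT Crtc1-/- 2 and 0.0705% to 0.577% in the other 3 eWAT libraries. The 14 adipocyte markers took 0.256% to 0.441% in eWAT Crtc1+/+ and 2.08% to 4.33% in eWAT Crtc1-/-. The libraries labelled eWAT Crtc1+/+ thus carried RNA of epididymis genes, and eWAT Crtc1-/- 2 carried RNA of hepatocyte genes. The eWAT results below are to be read with these values. In bulk tissue, fewer cells of a type and less RNA per cell cannot be told apart.

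Serpins took 7.16% and 8.25% of all counts in liver Crtc1+/+, and 6.68% and 5.10% in liver Crtc1-/-. In eWAT they took 0.520% and 0.299% in Crtc1+/+, and 0.345% and 3.29% in Crtc1-/-. The outlying value belonged to eWAT Crtc1-/- 2. Serpina1a to Serpina1e alone made up 5.004%, 5.78%, 4.53% and 3.61% of counts in the 4 liver libraries, and 0.138%, 0.0187%, 0.0234% and 2.18% in the 4 eWAT libraries, in the order above. At a mean of at least 1 CPM, 33 of the 54 genes were found in eWAT Crtc1+/+, 33 in eWAT Crtc1-/-, 25 in liver Crtc1+/+ and 27 in liver Crtc1-/-. Serpinb1c, Serpinb6e, Serpinb9d and Serpini2 had no count in any library, and 9 genes in all, these among them, never exceeded 3 counts.

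**Figure D1:**
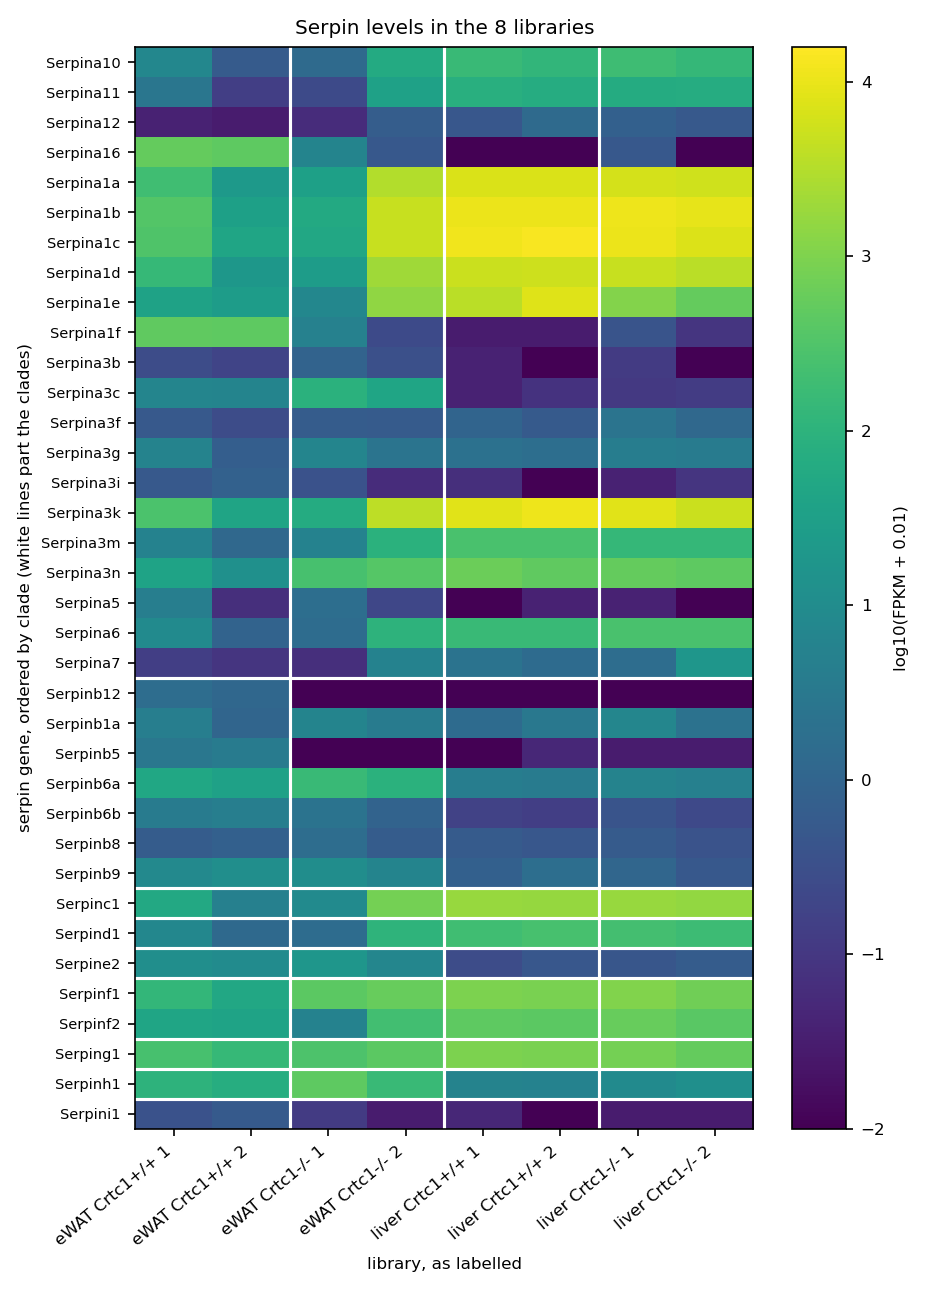
Level of each serpin in each library, as log10(FPKM + 0.01), for 36 of the 37 serpins with a mean of at least 1 CPM in some group; rows are ordered by clade and white lines part clades and groups. Serpina16 and Serpina1f were at 463 to 531 FPKM in both eWAT Crtc1+/+ libraries and at or under 6.12 FPKM elsewhere, and the column of eWAT Crtc1-/- 2 resembles the liver columns for the plasma serpins.

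Levels of different genes are compared per length, as the deposited FPKM, in which counts are scaled by transcript length and depth. In liver the order was led by Serpina1c (11726 and 13474 FPKM in Crtc1+/+, 10461 and 7470 FPKM in Crtc1-/-), Serpina1b (10303 and 10234 against 11199 and 9243 FPKM) and Serpina3k (8399 and 10858 against 8403 and 5056 FPKM). The ranges of Serpina1b and Serpina3k overlapped in liver Crtc1+/+, and those of Serpina1b and Serpina1c overlapped in liver Crtc1-/-. In eWAT Crtc1+/+ the order was different: Serpina16 (531 and 464 FPKM) and Serpina1f (478 and 463 FPKM), 2 genes that lie next to each other among the serpins, came first with overlapping ranges, followed by Serping1, the C1 inhibitor of the complement and kallikrein systems, at 246 and 144 FPKM. In eWAT Crtc1-/- the means were led by Serpina1c, Serpina1b and Serpina3k, but their values lay between 51.4 and 66.0 FPKM in replicate 1 and between 3890 and 4837 FPKM in replicate 2. In replicate 1 the highest serpins were Serpinh1 at 460 FPKM, Serpinf1, the pigment epithelium-derived factor, at 429 FPKM, and Serping1 at 300.0 FPKM. The leading genes of clades B, C, D and I were Serpinb6a in clade B (159 and 88.7 FPKM in eWAT Crtc1-/-), Serpinc1, or antithrombin, in clade C (1742 and 1633 FPKM in liver Crtc1+/+), Serpind1, or heparin cofactor II, in clade D (201 and 249 FPKM there), and Serpini1, or neuroserpin, in clade I, which did not exceed 0.552 FPKM.

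Compared to Crtc1+/+, the eWAT libraries labelled Crtc1-/- had more RNA of 5 serpins and less RNA of 4. Serpina3c, Serpina3n, Serpinb6a and Serpinf1 were among those that rose, and Serpinb5, Serpina16, Serpinb12 and Serpina1f fell (edgeR quasi-likelihood test, adjusted p under 0.05). Of the 54 serpins 36 passed the filter on low counts, so 9 of 36 were called, beside 12.2% of all 15391 genes tested. The 5 higher calls stand beside 6.65% of all genes called higher, and the 4 lower calls beside 5.53% called lower. The median log2 fold change was 1.85 over the 36 serpins and -0.05 over all genes tested, but without eWAT Crtc1-/- 2 the median of the serpins was -0.70, with 16 above 0 and 20 below. By clade, 2 genes rose and 2 fell in clade A, 1 rose and 2 fell in clade B, and 1 rose in clade F, while the tested genes of clades C, D, G, H and I gave no call. Leaving out 1 library changed these counts: 0 serpins were called without eWAT Crtc1+/+ 1 or without eWAT Crtc1+/+ 2, where edgeR called none of the genes, 23 without eWAT Crtc1-/- 1 (18.9% of all genes) and 10 without eWAT Crtc1-/- 2 (12.4%).

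Serpina3n, an acute phase inhibitor of granzyme B and elastase, was at 67.4 and 23.5 CPM in eWAT Crtc1+/+ and at 503 and 876 CPM in eWAT Crtc1-/-, and Serpina3c, another copy of the antichymotrypsin gene, at 9.14 and 8.65 CPM against 139 and 83.8 CPM. Neither range overlapped (log2 fold changes 3.92, SE 0.69, and 3.65, SE 0.38, adjusted p = 0.0332 and 0.0170 in edgeR). Serpinf1, which inhibits no protease and is known as an inhibitor of blood vessel growth, was at 149 and 64.0 CPM against 588 and 974 CPM. Serpinb6a, which acts inside cells, was at 55.5 and 42.3 CPM against 209 and 142 CPM. These groups did not overlap either, and the differences were smaller (log2 fold changes 2.87, SE 0.59, and 1.85, SE 0.34, adjusted p = 0.0436 and 0.0360 in edgeR). Serpinh1, the collagen chaperone, stood at 186 and 138 CPM against 976 and 415 CPM and missed the threshold (log2 fold change 2.10, SE 0.54, adjusted p = 0.0670 in edgeR). Beside these serpins, 10 of 14 adipocyte markers and 8 of 8 endothelium markers were also called higher in eWAT Crtc1-/-, as were 3 of 9 macrophage markers. Of 8 fibroblast markers 1 was called higher and 1 lower, and of 6 mesothelium markers 0 and 1. Hepatocyte markers took 9.36% of counts in eWAT Crtc1-/- 2, and epididymis markers 10.1% to 11.5% in eWAT Crtc1+/+. The part of these cells in the serpin differences was not tested.

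**Figure D2:**
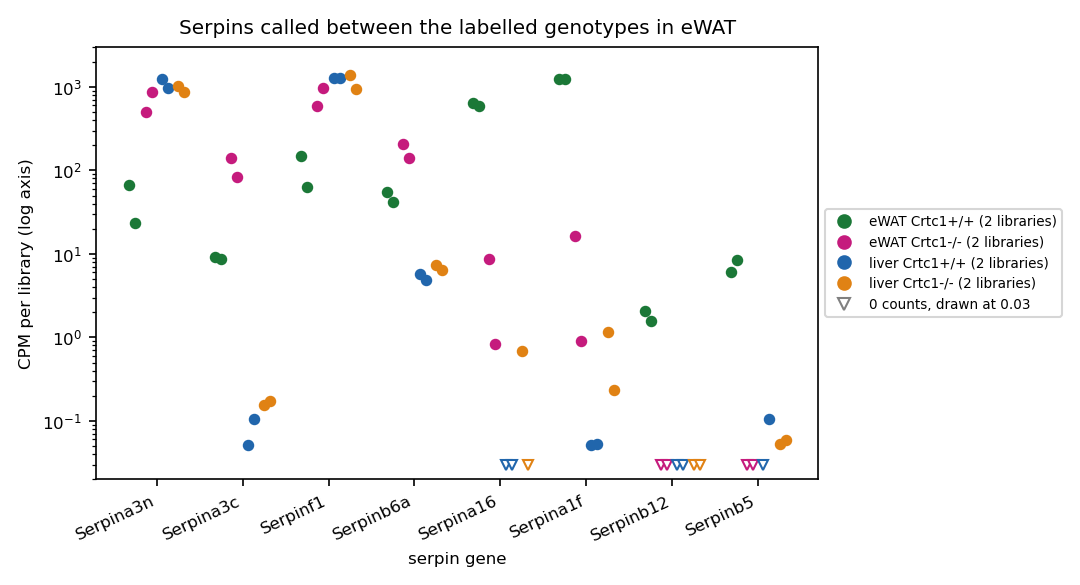
CPM per library, on a log axis, of 8 of the 9 serpins called between the labelled genotypes in eWAT, with the liver libraries beside them; each point is a library, triangles stand for 0 counts, and CPM were scaled within each tissue. For Serpina3n, Serpina3c, Serpinf1 and Serpinb6a both eWAT Crtc1-/- points lie above both eWAT Crtc1+/+ points, and for the other 4 genes both lie below.

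Of the serpins that fell, Serpina1f is known from the epididymis, and Serpinb5 and Serpinb12 from epithelia. Serpina1f was at 1249 and 1253 CPM in eWAT Crtc1+/+ and at 16.3 and 0.902 CPM in eWAT Crtc1-/-. Serpina16 was at 648 and 584 CPM against 8.62 and 0.832 CPM. The Crtc1+/+ libraries were close together for both genes, and the Crtc1-/- libraries were far below and far apart (log2 fold changes -7.18, SE 1.54, and -7.02, SE 1.27, adjusted p = 0.0482 and 0.0348 in edgeR). Serpinb5, or maspin, was at 6.06 and 8.45 CPM in eWAT Crtc1+/+ and at 0 in both Crtc1-/- libraries, and so was at least 38.9-fold lower against a floor of 3 counts per library (adjusted p = 0.0240 in edgeR). Serpinb12, another serpin of epithelial cells, was at 2.07 and 1.55 CPM against 0 and 0, at least 9.72-fold lower (adjusted p = 0.0372 in edgeR). In the same comparison 29 of the 30 epididymis markers were called lower, and these 4 serpins were high in the libraries in which those markers took over 10.1% of counts; the part of epididymis RNA in the 4 differences was not tested.

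Serpina16 (chromosome 12, 103668808 to 103676841) and Serpina1f (103688044 to 103695529) lie on the same strand, and their upstream sequences are shown because the genes moved together. Capitals mark the hexamer TGTTCT or its reverse complement AGAACA, the core to which the androgen receptor binds, and each run holds the 250 bases before a RefSeq transcript start on GRCm38.p6, minus strand. For Serpina1f that start is the end of the gene's span, and for Serpina16 it lies inside the span, so that the last 79 bases of its run belong to the annotated gene. The regions are chr12:103676763-103677012 for Serpina16 and chr12:103695530-103695779 for Serpina1f:
Serpina16: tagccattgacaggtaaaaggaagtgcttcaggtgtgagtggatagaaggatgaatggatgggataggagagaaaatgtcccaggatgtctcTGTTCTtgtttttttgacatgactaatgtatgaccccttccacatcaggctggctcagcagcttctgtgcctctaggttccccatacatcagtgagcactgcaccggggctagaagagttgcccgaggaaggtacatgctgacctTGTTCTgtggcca
Serpina1f: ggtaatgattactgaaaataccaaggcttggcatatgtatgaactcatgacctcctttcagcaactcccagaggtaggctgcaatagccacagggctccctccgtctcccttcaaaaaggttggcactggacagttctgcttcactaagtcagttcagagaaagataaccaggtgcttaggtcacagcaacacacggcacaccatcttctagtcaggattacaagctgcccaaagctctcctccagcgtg
The hexamer, on either strand, occurred in 2 places in the run of Serpina16, 1 of them within the annotated gene, and in none in the run of Serpina1f. In windows of 250 bases before to 50 after the start it was present in 19.02% of 27025 promoters of the genome and in 23 of the 46 serpin promoters in the table, a group that includes near-copies of each other. A match is only a description of these letters.

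The serpins of plasma differed from those above in that 1 library set most of their directions. Of the serpins with at least 50 CPM in both liver groups, a set of 16 chosen after the values were seen, all 16 had fitted log2 fold changes above 0 in eWAT, with a median of 4.12, but only Serpina3n and Serpinf1 were called. Serpina1a, for example, was at 271 and 29.9 CPM in eWAT Crtc1+/+ and at 52.5 and 5892 CPM in eWAT Crtc1-/-. Serpinc1 was at 72.5 and 6.84 against 13.95 and 1459 CPM. For both genes the second Crtc1-/- library was far above the other 3, and the first lay within the range of the Crtc1+/+ libraries (log2 fold changes 4.30, SE 2.24, and 4.21, SE 2.23, adjusted p = 0.239 and 0.243 in edgeR). Without eWAT Crtc1-/- 2, 12 of the 16 had fold changes below 0 and the median was -1.43. Without eWAT Crtc1-/- 1, all 16 were above 0 and the median was 5.12.

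**Figure D3:**
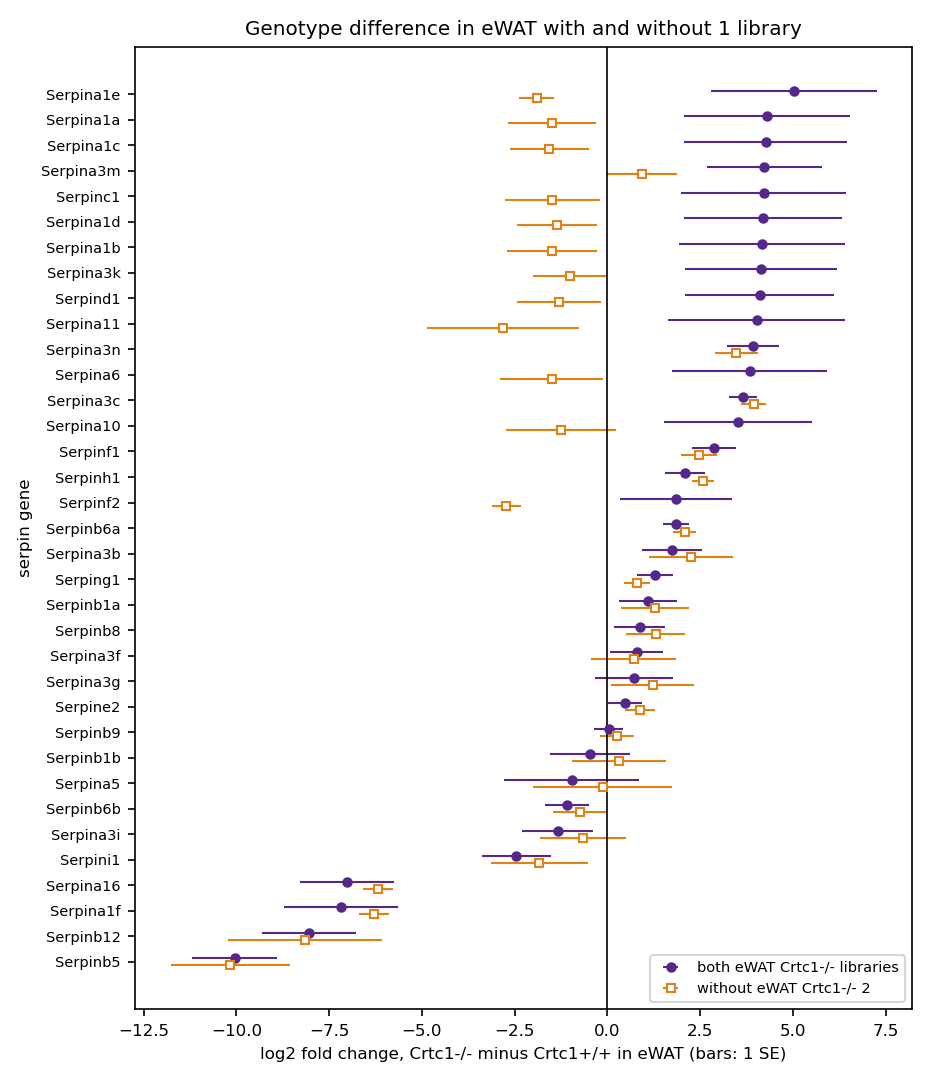
Log2 fold change of Crtc1-/- against Crtc1+/+ in eWAT for 35 of the 36 serpins tested, with bars of 1 SE, fitted with all 4 eWAT libraries (filled circles) and without eWAT Crtc1-/- 2 (open squares). Serpina3n, Serpina3c, Serpinf1, Serpinb6a and Serpinh1 keep their side of 0, while Serpina1a to Serpina1e, Serpina3k, Serpinc1, Serpind1, Serpina6, Serpina10, Serpina11 and Serpinf2 go from above 0 to below it.

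The copies were also summed. The 6 Serpina1 copies, summed, had a log2 fold change of 2.79 (SE 1.89, adjusted p = 0.337 in edgeR), which turned to -2.94 without eWAT Crtc1-/- 2 (adjusted p = 0.0155). This sum holds Serpina1f. The 5 copies that share reads gave 4.28 (adjusted p = 0.238). The 10 Serpina3 copies, summed, gave 4.06 (SE 1.45, adjusted p = 0.130), and stayed above 0 without any 1 library (1.499 to 5.71). Within the Serpina3 copies the make-up differed by library: Serpina3k gave 78.8% and 59.9% of their counts in eWAT Crtc1+/+, 13.1% in eWAT Crtc1-/- 1 and 86.5% in eWAT Crtc1-/- 2, whereas Serpina3n gave 14.8%, 25.3%, 65.4% and 10.5%. In liver Serpina3k gave 87.6% to 92.4%. The remaining Serpina3 copies at 1 CPM or more in some group were Serpina3m, Serpina3g, Serpina3f, Serpina3i and Serpina3b, and Serpina3a and Serpina3j stayed below it.

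Counts of the plasma serpins were then set against the counts of the 15 hepatocyte markers, which include no serpin. Serpina1a had 42.7 to 62.3 counts per 1000 marker counts in the 4 liver libraries, and 53.4, 46.5, 51.6 and 51.5 in the 4 eWAT libraries. In eWAT Crtc1-/- 2 all 16 serpins were within 2-fold of their liver median on this scale (0.833 to 1.41 times), and 14 of 16 lay inside the range of the liver libraries. In the other eWAT libraries 10 or 11 of the 16 lay within 2-fold. Those above it in all 3 of them were Serpina3n, Serpinf1, Serpinf2 and Serping1. In eWAT Crtc1-/- 1 Serpina3n had 494 counts per 1000 hepatocyte marker counts, 90.9 times its liver median, and Serpinf1 had 578. In eWAT Crtc1-/- 2 the same 2 genes had 7.65 and 8.50, just above the liver ranges of 4.22 to 6.90 and 4.63 to 7.97. The rise of Serpina3n and Serpinf1 was still called without eWAT Crtc1-/- 2, and 8 of the 9 calls were kept in that fit, Serpinb12 being the exception.

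**Figure D4:**
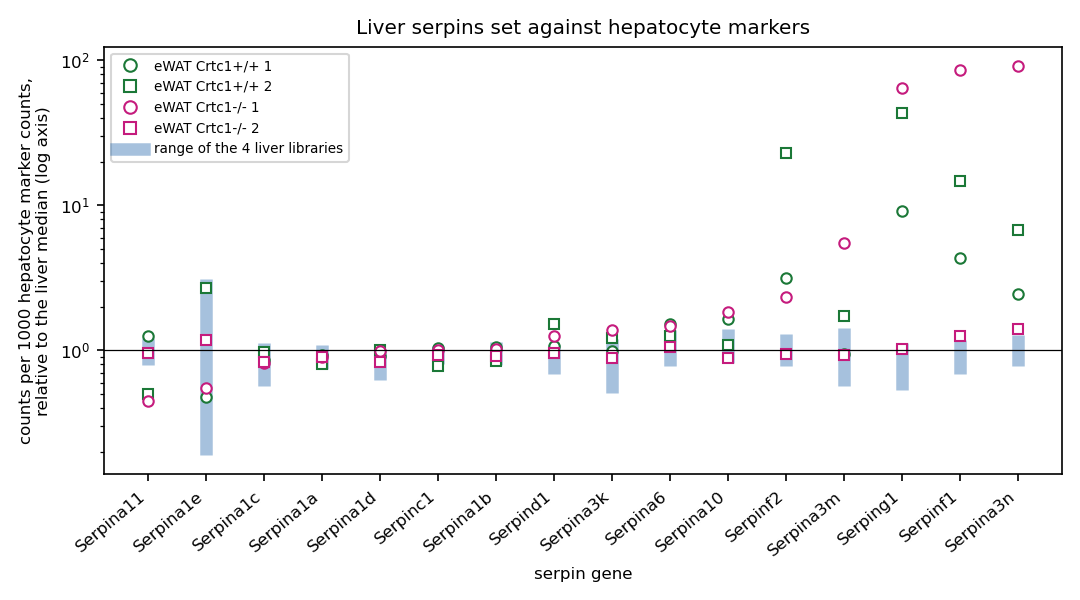
Counts per 1000 hepatocyte marker counts for the 16 serpins with at least 50 CPM in both liver groups, divided by the median of the 4 liver libraries, on a log axis; bars give the range of the liver libraries and symbols the 4 eWAT libraries. From Serpina11 to Serpina10 the symbols lie near 1, between 0.449 and 2.70, Serpinf2, Serping1, Serpinf1 and Serpina3n rise above the bars in eWAT Crtc1-/- 1 and in both eWAT Crtc1+/+ libraries, and Serpina3m stands at 5.52 in eWAT Crtc1-/- 1.

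The genes whose products serpins meet were taken from lists of their proteases, receptors and helpers, and their counts of calls stand beside the 12.2% of all genes called in eWAT. Of the 8 coagulation and kallikrein proteases none was called in eWAT by edgeR, and their median log2 fold change was 4.06. They took 0.0134% and 0.00202% of counts in eWAT Crtc1+/+, 0.00284% in eWAT Crtc1-/- 1 and 0.178% in eWAT Crtc1-/- 2, so the high value lay in the library with hepatocyte RNA. In the plasminogen system 1 of 4 genes rose, Plaur, the urokinase receptor, with a log2 fold change of 3.65 (SE 0.55, adjusted p = 0.0260 in edgeR), while Plau and Plat, the plasminogen activators, had 0.39 and -0.27 and were not called. Of the complement proteases C1s1 and Masp1, targets of Serping1, rose (log2 1.77 and 2.97, adjusted p = 0.0398 and 0.0270 in edgeR), out of 5 tested. Elane, neutrophil elastase, rose among 7 leukocyte and mast cell proteases tested. Lrp1, the receptor that clears serpin-protease complexes, rose by 2.11 on the log2 scale (SE 0.35, adjusted p = 0.0289 in edgeR), and was the 1 gene called of 7. St14, the membrane protease matriptase of epithelial cells, fell by 5.37 on the log2 scale (SE 0.96, adjusted p = 0.0342 in edgeR) and was the 1 gene called of 9. Agt, the serpin angiotensinogen whose symbol lies outside the naming rule, had 2.14 and was not called (adjusted p = 0.0770 in edgeR). No gene of these lists was called in liver by edgeR.

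In liver no serpin was called between the labelled genotypes. All 27 serpins that passed the filter had an adjusted p above 0.05 in edgeR, where 0.0854% of 11707 genes were called. The unadjusted p was under 0.05 for 8 of the 27, beside 17.3% of all genes, and DESeq2 called 2, beside 2.66% of all genes. At the threshold used in the study, an unadjusted p under 0.01 with an absolute log2 fold change over 1, 3 serpins passed, beside 4.27% of all genes: Serpina1e and Serpina3m were lower, and Serpina3g was higher. The adjusted call depended on single libraries: edgeR called 7 serpins without liver Crtc1-/- 1 (12.5% of all genes), 3 without liver Crtc1-/- 2 (1.46%) and 1 without liver Crtc1+/+ 1 (0.368%). The median log2 fold change was -0.09 over the 27 serpins and 0.00 over all genes.

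Serpina1e was the largest of these differences. It stood at 4588 and 10151 CPM in liver Crtc1+/+ and at 1376 and 655 CPM in liver Crtc1-/-. Both Crtc1-/- libraries were below both Crtc1+/+ libraries, which were themselves far apart (log2 fold change -2.86, SE 0.47, adjusted p = 0.0668 in edgeR and 2e-09 in DESeq2). Over 12 alternative fits its adjusted p ran from 1.5e-13 to 0.662, and 6 of them called it. The other copies moved little: Serpina1a, Serpina1b, Serpina1c and Serpina1d had log2 fold changes between -0.53 and -0.05, and all Serpina1 copies together -0.46 (SE 0.28, adjusted p = 0.407 in edgeR). Serpina1e gave 9.06% and 17.1% of the counts of Serpina1a to Serpina1e in liver Crtc1+/+ and 3.05% and 1.88% in liver Crtc1-/-, a fall of the mean by 10.6 percentage points. An exact two-sided permutation test of 2 against 2 libraries gave p = 0.333, the smallest it can give. In eWAT the shares were 3.35% (95% Wilson interval 3.13% to 3.58%) and 17.0% (15.8% to 18.4%) in Crtc1+/+, and 3.94% (3.40% to 4.56%) and 8.43% (8.34% to 8.51%) in Crtc1-/-, with no order by label. The share in eWAT Crtc1-/- 2 lay above both liver Crtc1-/- libraries and below both liver Crtc1+/+ libraries.

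**Figure D5:**
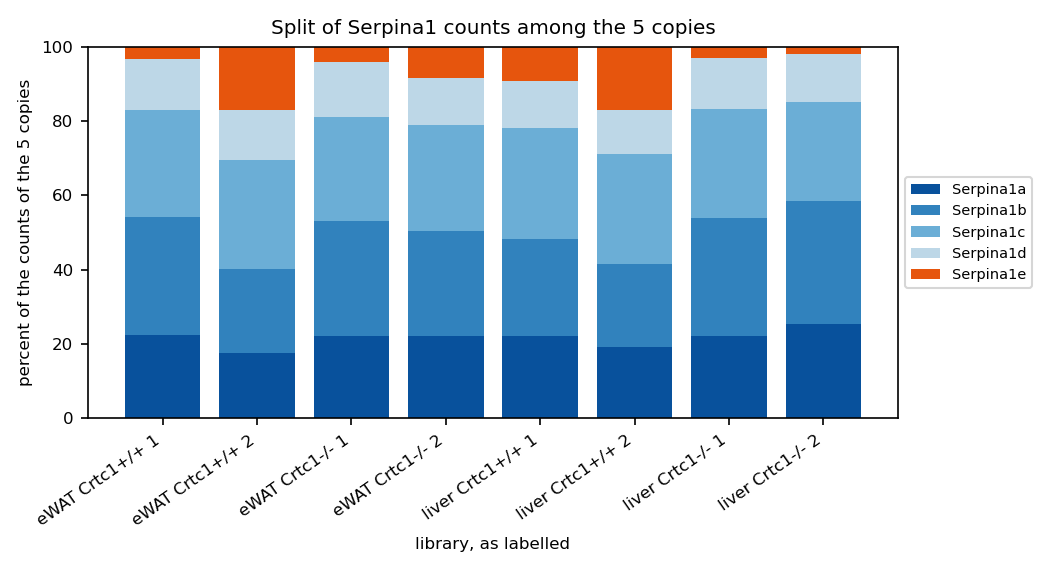
Percent of the counts of Serpina1a to Serpina1e that went to each copy, in each of the 8 libraries; bars add up to 100%. Serpina1b ranges from 22.5% to 33.2%, Serpina1a from 17.5% to 25.2%, and Serpina1e from 1.88% in liver Crtc1-/- 2 to 17.1% in liver Crtc1+/+ 2.

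The promoters of Serpina1b and Serpina1e, the closest pair, are shown because Serpina1e had the largest fitted difference in liver while its upstream sequence is nearly that of Serpina1b. Over 248 aligned bases they were 98.4% identical, and pairs among the 5 copies were 91.7% to 98.4% identical. Each run is the 250 bases before the annotated start on GRCm38.p6, minus strand (RefSeq), chr12:103738190-103738439 and chr12:103956898-103957147. Capitals mark bases within the aligned part that differ or are missing in the other gene, and the alignment begins 50 bases into the run of Serpina1b:
Serpina1b: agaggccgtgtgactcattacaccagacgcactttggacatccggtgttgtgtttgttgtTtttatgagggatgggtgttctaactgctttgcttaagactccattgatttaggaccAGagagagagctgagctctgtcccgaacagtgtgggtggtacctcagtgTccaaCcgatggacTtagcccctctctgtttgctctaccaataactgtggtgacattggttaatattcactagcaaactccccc
Serpina1e: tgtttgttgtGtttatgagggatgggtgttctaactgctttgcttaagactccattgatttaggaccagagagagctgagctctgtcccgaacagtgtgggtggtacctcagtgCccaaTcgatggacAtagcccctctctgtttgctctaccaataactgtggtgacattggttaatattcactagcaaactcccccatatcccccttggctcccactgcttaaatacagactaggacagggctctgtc
Inside these runs 4 bases differed between the copies, and 2 bases of Serpina1b had no partner in Serpina1e.

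Other liver serpins differed less. Serpina3m was at 382 and 379 CPM in liver Crtc1+/+ and at 186 and 174 CPM in liver Crtc1-/- (log2 fold change -1.08, SE 0.25, adjusted p = 0.123 in edgeR). The libraries of each group were close together and the groups did not overlap. Serpina3g, an intracellular serpin of immune cells, was at 3.70 and 3.20 against 7.70 and 6.71 CPM (log2 fold change 1.06, SE 0.32, adjusted p = 0.181 in edgeR). Serpina6, or corticosteroid-binding globulin, was at 235 and 235 against 379 and 367 CPM, and Serpinh1 at 12.6 and 11.9 against 19.6 and 25.3 CPM, neither of them called (adjusted p = 0.230 and 0.186 in edgeR). For Serpina7, or thyroxine-binding globulin, 1 Crtc1-/- library stood alone, with 5.39 and 3.25 CPM in Crtc1+/+ and 3.09 and 31.2 CPM in Crtc1-/-. Serpinc1, Serpind1, Serpinf1, Serpinf2, Serpina10 and Serpina3n had log2 fold changes between -0.23 and 0.16 with SE of 0.25 to 0.28. The 10 Serpina3 copies together gave -0.54 (SE 0.31, adjusted p = 0.385 in edgeR).

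The genotype difference of 2 serpins differed between the tissues. In the fit of all 8 libraries with an interaction of tissue and genotype, 2 of 38 serpins were called, beside 6.94% of 15587 genes, 1 higher (3.78% of all genes) and 1 lower (3.16%). Serpina3n rose in eWAT (log2 3.92) and had -0.22 in liver, where it was at 1235 and 982 CPM against 1032 and 868 CPM. Its interaction was 4.08 on the log2 scale (SE 0.90, adjusted p = 0.0432 in edgeR). Serpina1f fell in eWAT and was near the detection limit in liver, with 1 and 1 counts in Crtc1+/+ and 22 and 4 counts in Crtc1-/- (adjusted p = 0.0267 in edgeR). Epididymis markers took 0.000289% to 0.000327% of counts in liver Crtc1+/+ and 0.00144% to 0.0103% in liver Crtc1-/-, and their part in the Serpina1f difference was not tested. Serpina16 just missed the threshold (adjusted p = 0.0513 in edgeR). Without eWAT Crtc1-/- 1 the interaction was called for 17 serpins (13.9% of all genes), without eWAT Crtc1-/- 2 for 5 (8.38%), and without any 1 of the other 6 libraries for none (0% to 2.58%).

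Serpins were also compared between the tissues. In the libraries labelled Crtc1+/+, 28 of 38 serpins were called between eWAT and liver, beside 54.9% of all genes. Of the 28, 10 were higher in eWAT, beside 35% of all genes, and 18 were lower, beside 19.8%. With a block for replicate number the 28 calls became 18, beside 54.7% of all genes. In the libraries labelled Crtc1-/-, 8 of 38 were called, beside 27.8% of all genes, 6 higher (18.9% of all genes) and 2 lower (8.88%). Serpina3c, Serpinb6a, Serpinb9, an intracellular granzyme B inhibitor, Serpine2, or protease nexin 1, and Serpinh1 were higher in eWAT in both comparisons. Both come from 1 fit of all 8 libraries, so this overlap is not read as a result. The serpins higher in eWAT in the Crtc1+/+ libraries also included the 4 that fell in eWAT Crtc1-/-. Of these, Serpina1f was at least 3461-fold and Serpina16 at least 1706-fold higher than in liver, against a floor of 3 counts per library, beside the epididymis markers described above. The 18 lower in eWAT were Serpina3f, Serpina12 and all 16 plasma serpins of the set above. That set was picked by its liver levels, so its direction here was partly fixed by the choice. Without eWAT Crtc1-/- 2, 27 serpins instead of 8 were called between eWAT and liver in the Crtc1-/- libraries, 19 of them lower, beside 36.2% of all genes, and without liver Crtc1-/- 2 there were 4 (10.02%). Leaving out any 1 of the Crtc1+/+ libraries left 13 to 16 calls between the tissues in Crtc1+/+ instead of 28, beside 26.0% to 36.9% of all genes.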

How the data were processed

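RNA was sequenced from 8 libraries, 2 per group, of 16560087 to 19721478 counts. The deposited expected counts and FPKM per gene were made by the authors from the reads. The processing notes name HISAT, Bowtie2 and GRCm38.p6, and the counting tool and its annotation are not given in the sources used here. Counts were rounded to whole numbers. Genes passing filterByExpr were scaled by trimmed mean of M-values (TMM) and tested with edgeR 4.0.16 (quasi-likelihood test, Benjamini-Hochberg adjustment over all genes tested), within a tissue for genotype, and over all 8 libraries for tissue and interaction. Groups came from the labels. Members and lists were chosen with earlier results of these data known. Named genes were those called between genotypes or in the interaction, the 3 highest by FPKM per group, the highest per clade, the Serpina1 and Serpina3 copies and called genes of the partner lists; others were chosen after their values were seen. 1 serpin that is included in the counts is not reported here. Alternatives were DESeq2 1.42.0, limma 3.58.1 on quantile-normalized log2(FPKM + 1) or + 0.1, no filter and other scalings. Further ones were a replicate block, summed copies, and leaving out each library. The study used limma after between-array normalization, while the log2 FPKM input and the value added to it were choices made here. Both tissues came from the same mice, but no label ties them, so the tissue tests treat libraries as independent. The scripts were tested on simulated counts, in which 200 genes were changed by 3 on the log2 scale. In eWAT edgeR found 0.5% of these genes, against 95.0% in liver and 14.5% for the interaction. The shares found by DESeq2 were 72.5%, 90.5% and 55.5%, in that order. Unchanged genes that passed numbered 0, 21 and 4 in edgeR, and 119, 23 and 61 in DESeq2. A serpin that edgeR left uncalled in eWAT or in the interaction is therefore not shown to be unchanged. Upstream sequences and positions came from RefSeq.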

Additional observations from a re-analysis of the deposited data

Results flagged for a closer look

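By the test of the interaction of tissue and genotype in edgeR, 2 of 38 serpins were called, beside 6.94% of all 15587 genes. For these 2 the fitted difference between the labelled genotypes was not the same in both tissues. For Serpina3n the adjusted p was 0.0432, with values that rose from 67.4 and 23.5 CPM to 503 and 876 CPM in eWAT and overlapped in liver. It was called in 8 of 15 alternative fits. Hepatocyte markers took 9.36% of counts in eWAT Crtc1-/- 2, and their part in the Serpina3n difference was not tested. For Serpina1f the adjusted p was 0.0267, with 1249 and 1253 CPM against 16.3 and 0.902 CPM in eWAT and at most 22 counts in any liver library. It was called in 9 of 15 alternative fits. Epididymis markers took 10.1% to 11.5% of counts in eWAT Crtc1+/+ and at most 0.00411% in eWAT Crtc1-/-. Their part in the Serpina1f difference was not tested. Both serpins keep their direction in all 15, with log2 values of 3.52 to 5.06 for Serpina3n and below 0 for Serpina1f.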

How the results depend on the processing

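In eWAT the 9 serpin calls became 0 with a replicate block, a fit in which edgeR called no gene at all. They were 0 without eWAT Crtc1+/+ 1 or eWAT Crtc1+/+ 2, fits in which edgeR called no gene at all and the lone library was assumed to vary like the other group, and 23 without eWAT Crtc1-/- 1. In liver the 0 calls became 2 with DESeq2 (2.66% of all genes) and 2 with no filter (1.76%). They became 1 with a replicate block (0.70%) and 3 at the study's threshold (4.27%). Between eWAT and liver Crtc1+/+, the 28 calls became 18 with a replicate block and 18 at the study's threshold, and ranged from 13 to 30. Between eWAT and liver Crtc1-/-, the 8 calls ranged from 4 (without liver Crtc1-/- 2) to 27 (without eWAT Crtc1-/- 2). The 2 interaction calls became 7 with DESeq2 and 7 with limma at either pseudocount, 6 at the study's threshold and 0 with copies summed, where both genes are part of a sum, and ranged from 0 to 17, with 17 without eWAT Crtc1-/- 1, 5 without eWAT Crtc1-/- 2 and 0 without any of the other 6.

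The log2 fold change of the summed Serpina1 copies in eWAT ranged from -2.94 to 3.79 with 1 library left out, turning negative without eWAT Crtc1-/- 2. That of the summed Serpina3 copies was called with DESeq2 (4.10) and ranged from 1.499 to 5.71 in eWAT, and from -0.93 (without liver Crtc1-/- 1, called) to -0.24 in liver. The summed Serpina1 copies in liver ranged from -0.65 to -0.29. Summing only the copies that share reads was an alternative chosen after seeing the data. It changed no call of a single serpin between the labelled genotypes or in the interaction. Between eWAT and liver Crtc1+/+ it left 21 single serpins called (54.8% of all genes), as the summed copies no longer count 1 by 1. Each of the 9 eWAT serpins kept its direction in 12 of 12 alternatives, and lost its call with the block and without either eWAT Crtc1+/+ library. Serpinb6a and Serpinf1 also lost it under upper-quartile and library-size scaling, Serpinb6a with limma at either pseudocount, and Serpinb12 with no filter, with limma at a pseudocount of 1 and without either eWAT Crtc1-/- library. The differences between replicates 1 and 2 correlated weakly, at 0.00545 and 0.0569 between genotypes and at 0.161 and 0.0374 between tissues. Low values cannot decide whether same-numbered liver and eWAT libraries came from 1 mouse. The block is by replicate number only. The causes were not tested.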
